A study of Homo sapiens with 6 samples.

Results

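The genes described here encode 6 secreted proteins, the stress hormones GDF15, INHBE, ADM2 and FGF21 and the stanniocalcins STC1 and STC2. They were chosen by name, with earlier results of these data known, and each was found as 1 row among the 40295 gene identifiers of the deposited table. The libraries came from HDQ-P1, an established human breast carcinoma cell line, grown in high glucose medium with serum. In 3 libraries the cells had been exposed to Y-320, an immunomodulatory small molecule, at 1 µM for 48 h, and the 3 others came from untreated cells of the same line. The study was about readthrough of premature stop codons, and used these libraries to ask what Y-320 does to the transcriptome. In separate assays of this line, it reported that Y-320 at a higher dose increased protein synthesis, which these libraries do not measure. A single line, dose and time were sequenced, no source used here says that the untreated cells were given solvent, and nothing states that the replicates came from separate cultures, so p-values measure the spread between these libraries.

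These proteins belong to a group of signals that stressed cells release. When amino acids run short, unfolded protein builds up in the endoplasmic reticulum (ER) or mitochondria fail, kinases of the integrated stress response lower general translation while translation of the transcription factor ATF4 rises, and several hormone genes are known targets of ATF4 or its partner CHOP (DDIT3). GDF15, a distant TGF-β family member, signals to the hindbrain through GFRAL and RET and reduces appetite. INHBE, the activin βE chain, and FGF21 are best known from liver, and FGF21 acts on other tissues through FGF receptors with the co-receptor β-klotho (KLB). ADM2, also called intermedin, is a calcitonin family peptide that uses CALCRL with RAMP proteins. Stanniocalcins are glycoproteins named after a calcium-regulating hormone of fish, and both human forms inhibit the protease PAPP-A (PAPPA), which frees insulin-like growth factors (IGFs) from IGFBP4.

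The promoters of these genes are shown first because the stress pathways named above act through short DNA motifs. RefSeq sequence on GRCh38.p14 was matched for 4 of the 6 genes, and the 250 bases before each start were searched on both strands for TGATGNAAN (the C/EBP-ATF response element bound by ATF4 with C/EBP proteins), ACGTG and GCGTG (both forms of the hypoxia response element core bound by HIF-1) and TATAAA (the TATA box). Stretches free of annotated exons are printed 5′ to 3′ on the gene's strand, with motif matches in capitals. FGF21 is shown for its response element (chr19:48755391-48755523, plus strand), ADM2 (chr22:50481293-50481542, plus strand) and STC2 (chr5:173328448-173328664, minus strand) as strongly changed genes.
FGF21: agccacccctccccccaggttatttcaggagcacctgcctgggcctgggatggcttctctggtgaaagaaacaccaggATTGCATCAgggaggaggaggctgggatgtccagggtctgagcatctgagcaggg
ADM2: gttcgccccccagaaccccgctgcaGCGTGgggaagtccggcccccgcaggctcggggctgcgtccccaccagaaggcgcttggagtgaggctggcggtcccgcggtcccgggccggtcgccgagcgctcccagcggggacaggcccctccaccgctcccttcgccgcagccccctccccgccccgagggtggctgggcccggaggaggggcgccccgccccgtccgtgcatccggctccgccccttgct
STC2: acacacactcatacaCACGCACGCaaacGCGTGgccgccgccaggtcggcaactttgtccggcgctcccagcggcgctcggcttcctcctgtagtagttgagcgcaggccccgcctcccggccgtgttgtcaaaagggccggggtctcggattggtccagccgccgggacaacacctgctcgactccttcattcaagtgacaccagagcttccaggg
FGF21 held TGATGNAAN on the opposite strand, from -55 to -47 relative to the start, a motif found in 3.13% of 35116 promoter windows of the same length. ADM2 held GCGTG from -225 to -221. STC2 held the same motif in 3 places, from -235 to -231, from -231 to -227 (sharing 1 base with the former) and from -222 to -218, and 32.2% of all windows held it. The GDF15 window, not printed, held TATAAA from -29 to -24, a motif found in 10.7% of windows. ACGTG, found in 18.5% of windows, was not among the letters of these 4 windows. TGATGNAAN was not among those of GDF15, ADM2 or STC2, and sites outside the 250 bases were not searched. A match describes letters only and is not a measured binding site.

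The libraries held 21045401 to 22740535 estimated counts each, so 1 count was worth 0.0440 to 0.0475 CPM (counts scaled to equal library totals). A count of 0 allows up to 3 counts, or 0.132 to 0.143 CPM, as a limit of counting error. Normalized CPM are scaled by the TMM method, and log2 fold changes of Y-320 over untreated come from the quasi-likelihood test of edgeR, with p-values adjusted by the Benjamini-Hochberg method over 16580 genes and a threshold of 0.05. Small changes passed this threshold, since 26.2% of all genes tested were higher with Y-320 and 25.4% were lower, with a median log2 fold change of 0.00 over all of them (range from -0.03 to 0.01 under other scalings and filters). In bulk RNA, a change per cell and a change in which cells are present cannot be told apart. The epithelial identity of the line was present, with 10920 to 11420 CPM summed over 6 markers in untreated and 6834 to 6895 CPM in treated libraries. Of these markers 5 were lower and EPCAM was higher with Y-320.

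Y-320 up-regulated the mRNAs of 5 of the 6 proteins. INHBE rose 5.49-fold, ADM2 5.18-fold, STC2 4.31-fold, GDF15 3.81-fold and STC1 3.44-fold, while FGF21 stayed at 0 to 2 counts in every library. In each of the 5, the lowest treated library exceeded the highest untreated one, as it did for 29.8% of the genes tested. All 5 had log2 fold changes of at least 1 past the threshold, as did 2.43% of the genes tested. The 99 genes from STC1 upward in the order of log2 fold changes made up 0.597% of the genes tested, which places INHBE at rank 31, ADM2 at 36, STC2 at 56, GDF15 at 79 and STC1 at 99 from the top. The 95% intervals of INHBE and ADM2 overlapped, and without untreated replicate 1 their order turned, with log2 fold changes of 2.34 for INHBE and 2.39 for ADM2. INHBE, ADM2 and STC2 are among the genes that the study itself displayed for their change in these same libraries. Their direction is therefore not independent evidence. All 6 genes were chosen with earlier results known, so these ranks and shares only describe them.

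**Figure D1:**
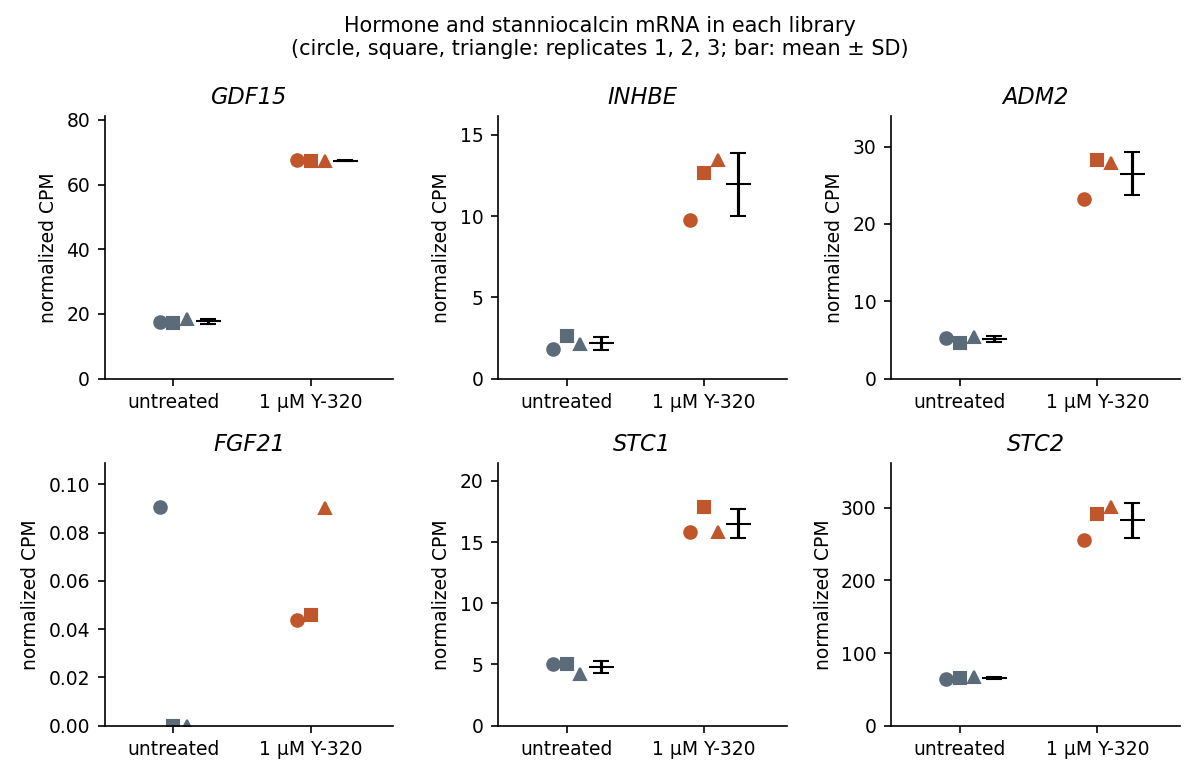
Normalized CPM (y axis, linear, from 0) of each of the 6 genes in untreated and Y-320 libraries. Each point is 1 library and bars give the mean ± SD, left out for FGF21 because its counts were 0 to 2. For INHBE, ADM2, STC1, STC2 and GDF15 the treated points all lie above the untreated ones.

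GDF15 (ENSG00000130513, chromosome 19 from 18374731 to 18389176 on the plus strand of hg38, GENCODE 44) encodes a protein of 308 residues. Its counts in untreated replicates 1 to 3 were 383.1, 359 and 409, and with Y-320 they were 1544, 1469 and 1492. The groups were far apart and the treated libraries nearly coincided. Its level rose from 17.7 ± 0.723 to 67.38 ± 0.176 normalized CPM (SD, n = 3), a log2 fold change of 1.93 (95% interval 1.84 to 2.02, standard error 0.040, edgeR adjusted p = 5.24e-10). The treated libraries differed by a coefficient of variation of 0.26%. Counting error alone is larger at such counts, so this small spread does not measure precision. MIR3189, a microRNA gene, lies within GDF15 on the same strand and is not a row of the table.

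INHBE (ENSG00000139269, chromosome 12 from 57452323 to 57459280, plus strand) encodes a precursor of 350 residues. It had 40.2, 54.3 and 46.9 counts in untreated replicates 1 to 3 and 223.4, 277 and 298.1 counts in Y-320 replicates 1 to 3. The lowest treated library, replicate 1, still exceeded every untreated library by a wide margin. Normalized CPM rose from 2.18 ± 0.396 to 11.97 ± 1.94 (SD, n = 3), a log2 fold change of 2.46 (95% interval 2.10 to 2.82, standard error 0.16, edgeR adjusted p = 6.21e-07). A long noncoding RNA gene, ENSG00000287200, overlaps INHBE on the opposite strand and is not a row of the table. Of the 31-base words of INHBE, 16.7% occur in another gene on the opposite strand and 2.39% on the same strand. Whether the counting used strand is not given in the sources used here, so reads of INHBE and its antisense partner could not be separated.

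ADM2 (ENSG00000128165, chromosome 22 from 50481543 to 50486440, plus strand) encodes a precursor of 148 residues. Untreated replicates 1 to 3 held 115.7, 96.9 and 119 counts and treated replicates 1 to 3 held 531.9, 617.5 and 617.6 counts. The groups did not overlap, and Y-320 replicate 1 was again the lowest treated library. The level rose from 5.09 ± 0.396 to 26.47 ± 2.77 normalized CPM, with a log2 fold change of 2.37 (95% interval 2.15 to 2.59, standard error 0.098, edgeR adjusted p = 2.31e-08). SBF1, which overlaps ADM2 on the opposite strand, was also higher, with a log2 fold change of 0.35 (edgeR adjusted p = 2.55e-06, standard error 0.028). Of the 31-base words of ADM2, 6.09% occur elsewhere on the opposite strand and 3.83% on the same strand.

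FGF21 (ENSG00000105550, chromosome 19 from 48755524 to 48758333, plus strand) encodes a protein of 209 residues and was close to undetected. It had 2, 0 and 0 counts in untreated replicates 1 to 3 and 1, 1 and 2 counts with Y-320. All 6 values lie at or under the limit that a count of 0 allows, so no fold change is given, and the gene did not pass the filter for the edgeR test. An exact two-sided permutation test of its normalized CPM gave p = 0.6. The TGATGNAAN motif in its promoter window stood beside an mRNA not detectable above this limit. In the same libraries ATF4 mRNA and all 20 genes of the ATF4 target list were higher with Y-320, beside 26.2% of all genes tested. That list was chosen with earlier results of these data known. A link between the motif and this mRNA was not tested.

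STC1 (ENSG00000159167, chromosome 8 from 23841929 to 23854806, minus strand) encodes a precursor of 247 residues. It had 112, 105 and 93.8 counts in untreated replicates 1 to 3 and 361, 390 and 351.1 counts in treated replicates 1 to 3, without overlap. Its level rose from 4.79 ± 0.465 to 16.5 ± 1.17 normalized CPM, a log2 fold change of 1.78 (95% interval 1.58 to 1.99, standard error 0.093, edgeR adjusted p = 1.14e-07).

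STC2 (ENSG00000113739, chromosome 5 from 173314723 to 173328447, minus strand) encodes a precursor of 302 residues. Untreated replicates 1 to 3 held 1419, 1375 and 1467 counts and treated replicates 1 to 3 held 5832, 6384 and 6669 counts. The untreated libraries lay close together, and Y-320 replicate 1 was the lowest of the treated ones. Its level rose from 65.56 ± 1.14 to 282.8 ± 24.3 normalized CPM, a log2 fold change of 2.11 (95% interval 1.98 to 2.24, standard error 0.059, edgeR adjusted p = 2.11e-09). An exact permutation test of 3 against 3 libraries gave p = 0.1 for STC2, as for each of the 4 other up-regulated genes, the smallest p this design allows.

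Both stanniocalcins inhibit the same protease, so their balance was compared within each library. The log2 ratio of STC2 to STC1 counts was 3.66, 3.70 and 3.96 in untreated replicates 1 to 3 and 4.01, 4.03 and 4.25 with Y-320. All treated ratios lay above all untreated ones, but the gap of 0.05 between the nearest libraries was smaller than the SD of either group. The mean was 3.77 ± 0.163 untreated and 4.10 ± 0.130 treated, a difference of 0.32 (exact permutation p = 0.1, two-sided, the smallest possible).

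Divided by the length of the canonical transcript, the untreated levels fell into an upper and a lower pair, with INHBE below both. STC2 stood at 15.41 ± 0.268 and GDF15 at 14.75 ± 0.60 normalized CPM per kilobase (SD, n = 3), with overlapping ranges of mean ± SD. STC1 at 1.24 ± 0.120 and ADM2 at 1.21 ± 0.094 were likewise not separated, and INHBE was lowest at 0.887 ± 0.161. With Y-320 the same quantity was 66.48 ± 5.70 for STC2, 56.15 ± 0.147 for GDF15, 6.28 ± 0.657 for ADM2, 4.87 ± 0.788 for INHBE and 4.27 ± 0.303 for STC1. Among treated neighbours, ADM2 and INHBE overlapped within 1 SD, as did INHBE and STC1, while STC2 and GDF15 did not. The SD of treated GDF15 was smaller than its counting error.

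**Figure D2:**
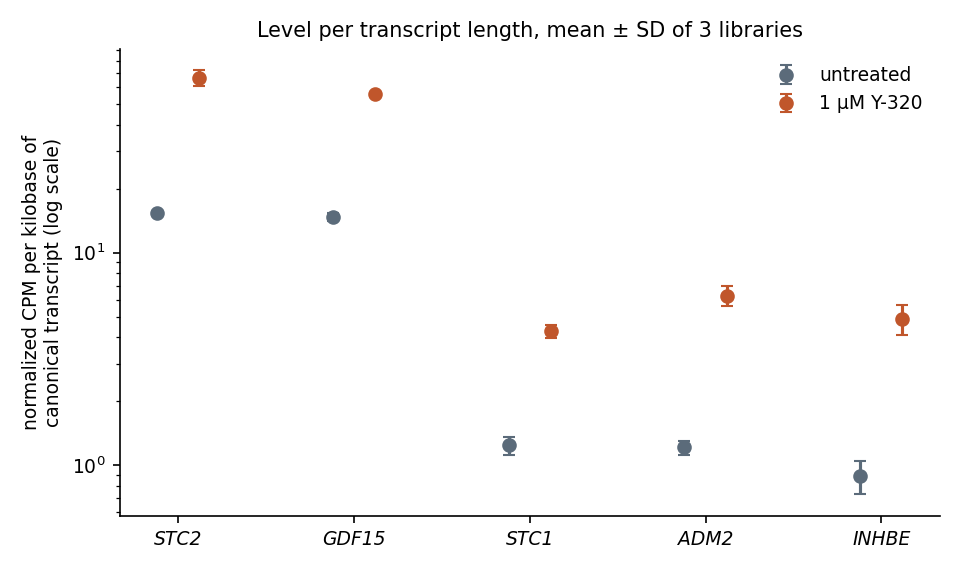
Normalized CPM per kilobase of canonical transcript (y axis, log scale) for the 5 detected genes, as mean ± SD of 3 untreated and 3 Y-320 libraries. STC2 and GDF15 lie above the other genes in both groups.

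Summed over all 6 genes, with FGF21 adding less than the SD, this per-length level rose from 33.5 ± 0.71 to 138.1 ± 7.12 CPM per kilobase. STC2 and GDF15 supplied most of it, with 46.0% and 44% of the sum in untreated cells and 48.1% and 40.7% with Y-320. ADM2 made up 3.61% and 4.54%, INHBE 2.65% and 3.51%, and STC1 3.70% and 3.09%, in untreated and treated cells in that order.

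The spread between treated libraries was shared by several of the genes. Y-320 replicate 1 lay below its group mean by a log2 deviation of -0.28 for INHBE, -0.18 for ADM2 and -0.14 for STC2, but by only -0.06 for STC1, and at 0.00 for GDF15. Without this library the log2 fold changes were 2.59 for INHBE, 2.46 for ADM2 and 2.18 for STC2, each higher than with it, and all 5 genes stayed past the threshold.

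The genes with the most similar profiles were found by Euclidean distance between centred log2 normalized CPM over the 6 libraries, among 13999 genes of at least 1 CPM on average. Nearest to STC2 were ASNS, asparagine synthetase (distance 0.172), and TRIB3, a pseudokinase induced by ATF4 and CHOP (0.184). ATF3, a stress-induced transcription factor, was nearest to ADM2 (0.312) and second to INHBE (0.342), for which HDAC9, a histone deacetylase, came first (0.288). UNC13A, a vesicle release protein of neurons, came second for ADM2 (0.337). For GDF15 they were EEF1AKMT4, a lysine methyltransferase (0.143), and IRAK2, a kinase of interleukin-1 and Toll-like receptor signalling (0.147). For STC1 they were BIRC3, an inhibitor of apoptosis (0.184), and TSLP, an epithelial cytokine (0.208). The distance takes in both the fold change and the spread within groups.

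Most receptors for these hormones were low or did not rise. Of 17 receptor and co-receptor genes, 12 were tested, of which 1 was higher, 5 were lower and 6 did not pass, with a median log2 fold change of -0.14 beside 0.00 over all genes, of which 26.2% were higher and 25.4% lower. GFRAL, the GDF15 receptor, had 0 to 1.163 counts per library, and its partner RET had 7 to 11 counts and was not tested. For ADM2, CALCRL (3.028 to 10.47 counts), CALCR (3 to 8 counts) and RAMP3 (0 to 2 counts) were too low to test. RAMP1 gave a log2 fold change of -0.16 (edgeR adjusted p = 0.114) and RAMP2 one of -0.51 (edgeR adjusted p = 0.0275), the latter past the threshold in 8 of 15 other settings.

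FGF receptors were expressed, and FGFR2, FGFR3 and FGFR4 fell. The FGF21 co-receptor KLB was low, and neither KLB nor FGFR1 passed the threshold. FGFR2 fell from 20.23 ± 3.16 to 6.85 ± 0.538 normalized CPM (log2 fold change -1.56, standard error 0.12, edgeR adjusted p = 1.92e-06), and FGFR3 from 6.90 ± 0.702 to 2.75 ± 0.163 (log2 fold change -1.33, standard error 0.12, edgeR adjusted p = 8.29e-06). KL, α-klotho, the co-receptor of the related hormone FGF23, fell from 60.4 ± 1.58 to 24.3 ± 2.09 (log2 fold change -1.31, standard error 0.055, edgeR adjusted p = 2.58e-08). FGFR4 had a log2 fold change of -0.42 (edgeR adjusted p = 0.00245), FGFR1 of 0.12 (0.0794) and KLB, near 0.5 CPM, of -0.12 (0.787, 95% interval -0.82 to 0.57). Among activin receptors, which serve INHBE relatives, ACVR2B was higher by 0.41 on the log2 scale (edgeR adjusted p = 0.00445), and ACVR1B (-0.11), ACVR1C (-0.04) and ACVR2A (-0.07) did not pass.

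**Figure D3:**
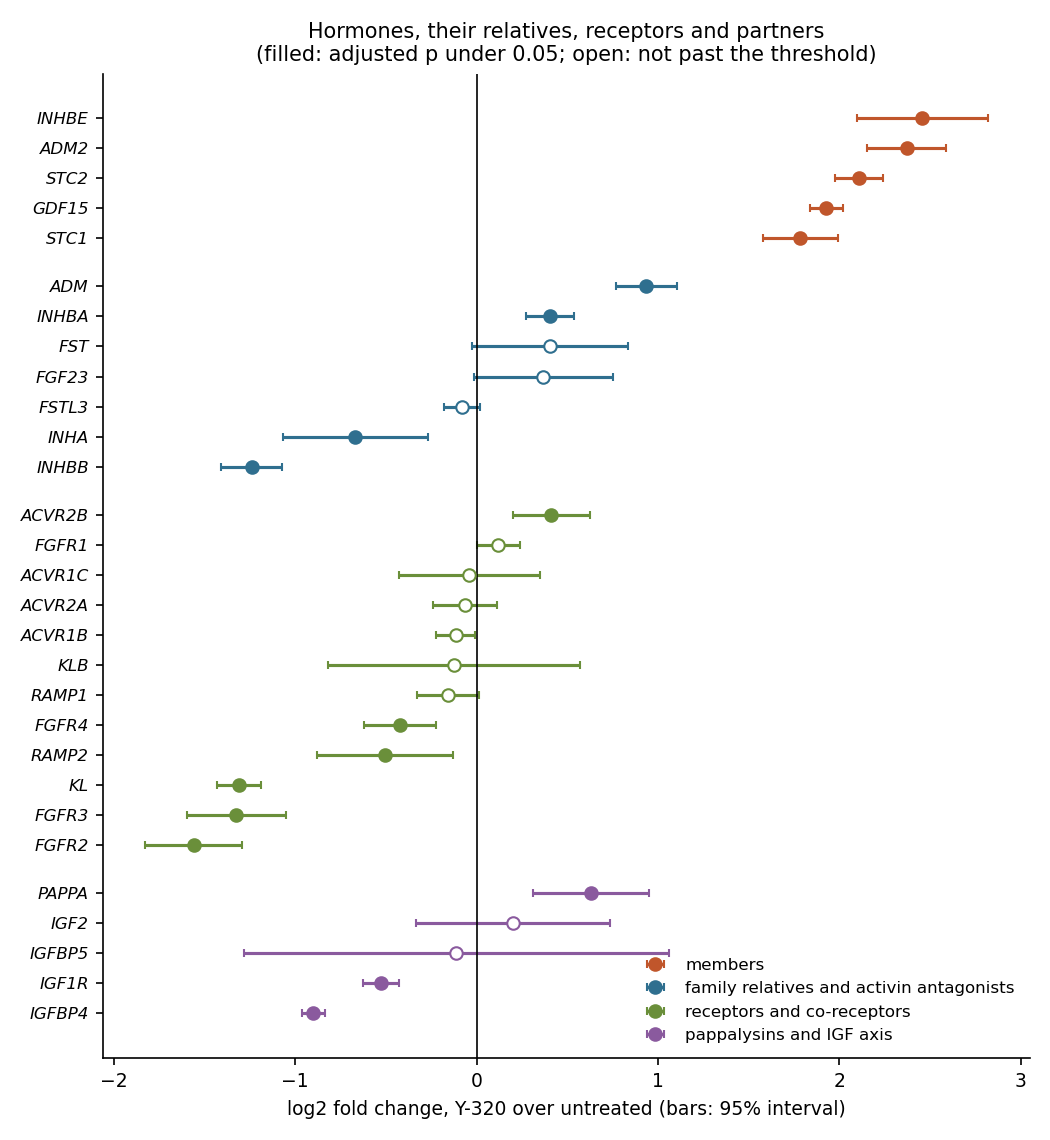
Log2 fold change of Y-320 over untreated (x axis) for the 5 tested hormone genes and the tested genes of 3 lists, with unadjusted 95% intervals as bars. Filled points passed an adjusted p of 0.05. The hormone genes lie between 1.78 and 2.46, to the right of every gene of these lists, of which ADM is highest at 0.94.

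Relatives of these hormones moved in both directions. Of 12 family relatives and activin antagonists, 7 were tested, with 2 higher, 2 lower and 3 not past the threshold (median log2 fold change 0.37), shares near the 26.2% higher and 25.4% lower over all genes. ADM, adrenomedullin, a vasodilator peptide close to ADM2, rose from 9.91 ± 0.386 to 18.98 ± 1.57 normalized CPM (log2 fold change 0.94, standard error 0.076, edgeR adjusted p = 3.06e-06). INHBB, the activin βB chain, fell from 26.2 ± 0.632 to 11.1 ± 1.26 (log2 fold change -1.24, standard error 0.075, edgeR adjusted p = 3.24e-07), while INHBA, the βA chain, rose by 0.41 on the log2 scale (edgeR adjusted p = 2.43e-04). INHA, the inhibin α chain, fell by 0.67 on the log2 scale (edgeR adjusted p = 0.00992). INHBC, the βC chain gene 261 bases from INHBE, had 2 to 5 counts in every library and was not tested. FST, FSTL3 and FGF23 did not pass, and FGF19, CALCA, CALCB and IAPP were too low to test.

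In the stanniocalcin and IGF axis, 5 of 7 genes were tested, with 1 higher, 2 lower and 2 not past the threshold (median log2 fold change -0.11), beside 26.2% of all genes higher and 25.4% lower. PAPPA, the stanniocalcin target, rose from 2.304 ± 0.174 to 3.57 ± 0.144 normalized CPM (log2 fold change 0.63, standard error 0.14, edgeR adjusted p = 0.00382). Its substrate IGFBP4 fell from 94.25 ± 0.284 to 50.5 ± 0.784 (log2 fold change -0.90, standard error 0.030, edgeR adjusted p = 4.97e-09). IGF1R, the IGF receptor, fell from 115.7 ± 5.98 to 80.2 ± 3.58 (log2 fold change -0.53, standard error 0.045, edgeR adjusted p = 4.13e-06). PAPPA2 had 0 or 1 count, and IGF1 was too low to test.

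Enzymes that cleave or modify hormone precursors changed by less than the hormones. Of 10 such genes 7 were tested, 1 higher, 5 lower and 1 not past the threshold (median log2 fold change -0.17), beside 26.2% of all genes higher and 25.4% lower. PAM, which amidates peptides such as adrenomedullins, rose from 71.3 ± 4.58 to 101.7 ± 0.639 normalized CPM (log2 fold change 0.51, standard error 0.042, edgeR adjusted p = 3.48e-06). PCSK5, a proprotein convertase, fell by 0.78 on the log2 scale (edgeR adjusted p = 1.40e-05). PCSK6 (log2 fold change -0.21) and PCSK7 (-0.17) changed by less, and FURIN, the general convertase that processes TGF-β family precursors, was at 129.1 ± 1.99 and 126.9 ± 3.96 normalized CPM (log2 fold change -0.02, edgeR adjusted p = 0.532). MBTPS1 (-0.08) and CPE (-0.18) were past the threshold, in 12 and 7 of 15 other settings.

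Stress transcription factors were mostly higher. Of 15 tested, 10 were higher, 4 lower and 1 not past the threshold (median log2 fold change 0.53), beside 26.2% of all genes higher and 25.4% lower. ATF3 rose by a log2 fold change of 2.36 (edgeR adjusted p = 5.14e-09, standard error 0.078), from 6.69 ± 0.480 to 34.26 ± 2.55 normalized CPM, the size of the change of ADM2. DDIT3 (CHOP) rose by 1.78 (edgeR adjusted p = 1.01e-08, standard error 0.065) and ATF4 by 1.09 (edgeR adjusted p = 7.52e-10, standard error 0.025). NUPR1 (1.32), CEBPG (1.31) and XBP1 (0.96) were also higher. The hypoxia factors HIF1A (-0.34) and EPAS1 (-0.42) and the immediate early factor EGR1 (-0.55) were lower. Of the lysosomal factors, TFEB (-0.50) was lower and TFE3 (0.20) was higher, and ATF5 (-0.03) did not pass.

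The ATF4 and HIF-1 target lists and the ER chaperone list rose throughout. All 20 ATF4 target genes were higher (median log2 fold change 1.03), led by VLDLR (log2 fold change 2.48), TRIB3 (2.04), ASNS (1.98) and CHAC1 (1.92), and followed by ALDH1L2 (3.02-fold) and SESN2 (2.83-fold). All 14 HIF-1 target genes were higher as well (median log2 fold change 1.13), led by CA9 (log2 fold change 3.13), NDRG1 (2.62), VEGFA (1.94), BNIP3 (1.91), LOX (1.65) and EGLN3 (1.61). HIF1A mRNA was lower. These libraries measure mRNA only, and whether ATF4 or HIF-1 acted on the listed genes was not tested. The 14 ER chaperone genes were all higher with smaller changes (median 0.57), with HERPUD1 (1.29), HSPA5 (1.04) and CALR (0.65) among them. Each of these 3 lists stands beside 26.2% of all genes higher. The lists were chosen with earlier results of these data known, so their counts describe the listed genes and are not independent evidence. The tested hormones had a median of 2.11, above the median of each list. These hormone genes were also chosen with earlier results known, so that difference is no evidence of a stronger response. CA9 lay above the 95% interval of INHBE, and NDRG1 and VLDLR lay within it. ADM stands in both the relatives and the HIF-1 list, VEGFA in the HIF-1 list and that of other secreted proteins, and MANF in the ER list and the latter.

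**Figure D4:**
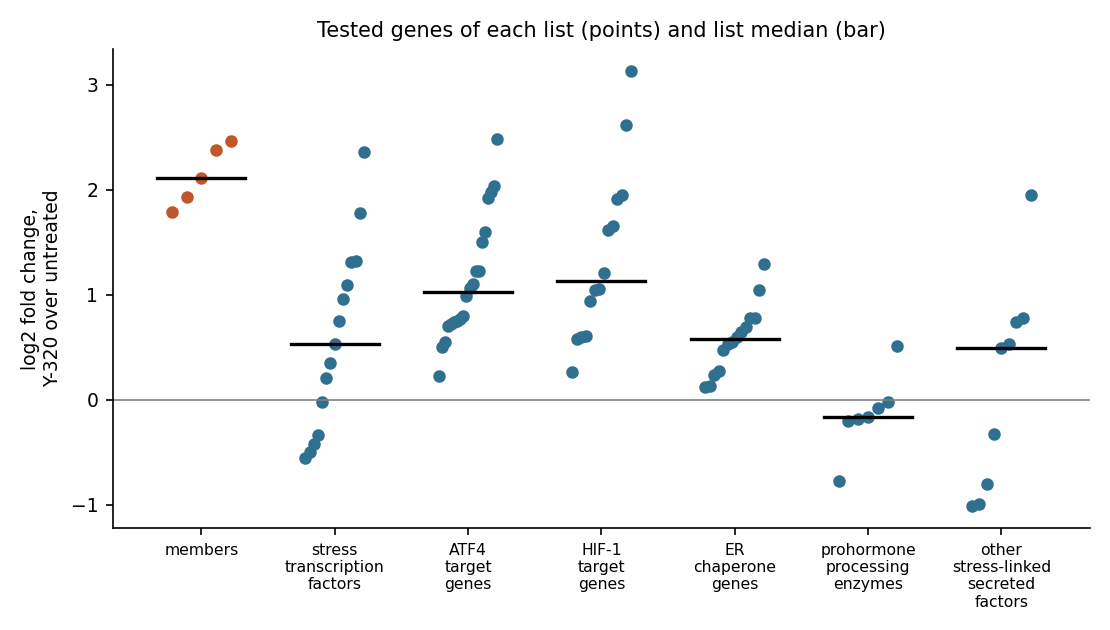
Log2 fold change of Y-320 over untreated (y axis) for each tested gene of 6 lists and the 5 tested hormone genes, labelled members, with the list median as a bar. ATF4, HIF-1 and ER chaperone genes all lie above 0, while prohormone processing enzymes lie mostly just below it.

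Other secreted proteins linked to stress did not share one direction. Of 9, all tested, 5 were higher, 3 were lower and 1 did not pass (median log2 fold change 0.50), beside 26.2% of all genes higher and 25.4% lower. VEGFA, the angiogenic factor, rose from 42.6 ± 3.11 to 164.2 ± 3.21 normalized CPM. LCN2, a siderophore-binding protein, rose by 0.50 on the log2 scale (edgeR adjusted p = 1.20e-04), whereas IGFBP3, an IGF-binding protein, fell by 0.80 on the log2 scale (edgeR adjusted p = 3.62e-08). ANGPTL4 (0.74, edgeR adjusted p = 0.0359) passed in 9 of 15 other settings and PTHLH (-0.99, edgeR adjusted p = 0.00935) in 14 of 15.

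The neighbouring protein-coding genes that were tested did not rise to the same extent. PGPEP1, beside GDF15, was higher by a log2 fold change of 0.87 (edgeR adjusted p = 2.94e-07), and BOD1, beside STC2 but 278698 bases away, by 0.66 (edgeR adjusted p = 7.25e-08). NKX2-5, on the other side of STC2, was lower (-0.59, edgeR adjusted p = 0.0108). GLI1, 505 bases from INHBE, had a log2 fold change of -0.11 (edgeR adjusted p = 0.764), and PPP6R2, near ADM2, was lower by the same value (edgeR adjusted p = 0.0188). Next to the undetected FGF21, FUT1 was higher by 0.48 (edgeR adjusted p = 0.0157) and BCAT2 lower (-0.16, edgeR adjusted p = 0.00597). LRRC25, INHBC, MIOX, NKX2-6 and ADAM28 were too low to test. Of these, MIOX, 344 bases from ADM2, had 1.29, 2.0 and 7.59 counts in untreated replicates 1 to 3. With Y-320 it had 6.14, 11.79 and 15.04 counts, so the groups overlapped.

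Because INHBE and FGF21 are known from liver and GDF15 from placenta, markers of other cell types were summed. The 5 hepatocyte markers had 0.136 to 0.363 CPM in untreated and 0.131 to 0.137 CPM in treated libraries, and ALB, APOB, TTR and FGB never exceeded 3 counts. The 4 trophoblast markers had 2.61 to 3.27 CPM untreated and 0.594 to 1.29 CPM treated, and PSG1, the tested one, fell. The 4 adipocyte markers had 0.511 to 1.38 and 0.780 to 1.36 CPM, with none tested. Of 5 fibroblast markers 4 were lower and none higher, beside 25.4% of all genes tested lower and 26.2% higher. Their sums were 245.6 to 270.6 CPM untreated and 125.2 to 139.9 CPM treated. The 4 leukocyte markers had 36.2 to 38.2 and 66.5 to 73.1 CPM, nearly all of it CD68, which was higher (0.93), with CD3E at 1 to 2 counts. The 3 endothelial markers had 17.5 to 18.9 and 13.8 to 17.9 CPM, with PECAM1 higher (1.22), CDH5 lower (-1.29) and VWF not past the threshold. The part of these shifts in the hormone changes was not tested.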

How the data were processed

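RNA-seq libraries of untreated and Y-320-treated HDQ-P1 cells were compared, 3 in each group as the labels give them. The deposited values are estimated counts of each gene without normalization, and the submitters' processing notes name kallisto 0.46.1 and GRCh38. The Ensembl release and use of strand are not given in the sources used here. The authors' own combination of pipelines was not repeated.

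Estimated counts were rounded to whole numbers. edgeR 4.0.16 (R 4.3.3) filtered genes with filterByExpr (minimum 10 counts, 15 in total), scaled by TMM and fitted a quasi-likelihood model without a block. Of 40295 identifiers, 35390 were matched to names. On simulated data, the fit recovered 91% of 200 changed genes among 16295, and 6.67% of its calls were false. The simulation gave all genes the same dispersion between libraries and changed far fewer genes than were called here. Its rates therefore need not hold for the real comparison. DESeq2 1.42.0, limma-voom (limma 3.58.1), other scalings and filters, unrounded counts, a replicate block and leaving out each library were the alternatives. Depth was 21045401 to 22740535 counts per library. Replicates differed by 1.99 to 2.96 times sampling noise (chi-square over degrees of freedom).

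The 6 genes, the gene lists and the markers were chosen with earlier results of these data known. Named genes were, besides these 6, their 2 nearest profiles, the neighbouring protein-coding genes, up to 6 genes of each list by size of change past the threshold, and all receptors; other list genes were named after their values were seen. The values of some list genes are not reported here, and counts over the lists include them.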

Additional observations from a re-analysis of the deposited data

How the results depend on the processing

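No direction or side of the threshold changed for the 5 tested hormone genes under 15 alternatives each. Leaving out each library gave log2 fold changes from 1.91 to 1.96 for GDF15, 2.34 to 2.60 for INHBE, 2.31 to 2.46 for ADM2, 1.70 to 1.83 for STC1 and 2.06 to 2.18 for STC2, and the other alternatives stayed inside these ranges except for GDF15 (1.90 to 1.94). The number of genes higher ranged from 3835 to 4539 and of genes lower from 3697 to 4746 over all alternatives. With a replicate block, 4285 genes were higher and 4159 lower, and INHBE had a log2 fold change of 2.46. Deviations of same-numbered untreated and Y-320 libraries correlated at 0.0105, 0.00447 and 0.0292, and those of differently numbered ones at -0.0312 to 0.0204. Whether same-numbered libraries shared a culture or preparation was not tested. The difference in the STC2 to STC1 ratio ranged from 0.25 to 0.42 when each library was left out. The medians of the 9 gene lists kept their sign under 6 alternatives. FGF21 entered the fit without a filter and that of DESeq2, where it was not called, and no value is given because its counts were 0 to 2. Nothing below about 0.13 CPM could be told from absence.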
